A study of Mus musculus with 6 samples.

Results

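The genes described here encode the enzymes of xenobiotic metabolism, chosen by name as every gene of the deposited table whose symbol belonged to cytochrome families Cyp1 to Cyp4, the UDP-glucuronosyltransferases Ugt1a, Ugt1b, Ugt2a and Ugt2b, the sulfotransferases Sult1 to Sult6, or the glutathione S-transferase classes Gsta, Gstm, Gstp, Gstt, Gstk, Gsto and Gstz. The rule found 90 of the 18049 genes in the table. These were 48 Cyp, 12 Ugt, 9 Sult and 21 Gst genes. The rule used no measured value. The 48 Cyp genes were all of families Cyp2, Cyp3 and Cyp4. Cyp1a1, Cyp1b1 and Cyp2b10, textbook targets of xenobiotic receptors, were not among the 90 genes and were not analysed here.

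Cytochrome enzymes carry out the oxidation steps of drug metabolism (phase I). Ugt, Sult and Gst enzymes then attach glucuronic acid, sulfate or glutathione to the product or directly to the parent compound (phase II), so that it can be exported. In the colon these enzymes meet dietary compounds, bile acids and products of gut bacteria, and many are controlled by the receptors AhR, PXR and CAR and by the transcription factor NRF2.

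The libraries were stranded total RNA-Seq of colonic crypts. They are taken here as 1 per mouse, which the labels do not state. There were 3 from vehicle-injected control mice and 3 from mice given GSK503, an inhibitor of the histone methyltransferase EZH2. GSK503 was given at 200 μg/kg by tail vein in a trial of 9 weeks. All 6 mice, on C57BL/6J, belonged to 1 model of Lynch syndrome, with a Villin-Cre transgene, which drives a conditional deletion in intestinal epithelium, and a humanized TgfβRII knockin with a microsatellite repeat. All were fed a Western-style diet. The methods name captisol in PBS for the control injections and PBS for GSK503, so captisol, as described, went with the control group. Ages at collection were not given in the sources used here. The question put to these genes was whether their mRNA differed between treated and control crypts.

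Values are estimated read counts divided by a scaled library size, in the manner of CPM (counts brought to a common library size), and are called scaled CPM. The estimated depth was 108162848 to 135085027 counts per library, so that 3 counts correspond to between 0.0228 and 0.0271 scaled CPM. Transcripts that separated the sexes also separated the groups. Xist, the X-inactivation RNA, was at 0.419 to 0.936 scaled CPM in the control mice and at 825 to 1236 in the treated mice, and Eif2s3y, on the Y chromosome, was at 51.3 to 59.5 in the control mice and listed at 0 in all 3 treated mice. The labels give no sex and the methods describe both sexes, so treatment and sex cannot be told apart in any comparison below. The tissue label was checked against markers. Epithelial markers such as Epcam and Krt8 were detected in every mouse, with a summed level of 8626 to 9709 in the control mice and 9155 to 10838 in the treated mice. Posterior Hox genes, which mark the distal gut, summed to 150 to 175 and 176 to 203, and 0 of 6 were called. Of the goblet cell markers, 4 of 7 were called higher in treated mice (summed level 10248 to 18534 against 31900 to 50358), and 3 of 7 enteroendocrine markers were called lower (201 to 249 against 126 to 161). Whether these cell types had a part in the values of the enzymes was not tested, and in bulk crypts fewer cells of a type and less RNA per cell cannot be told apart.

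Several of these genes are so alike that a read can fit more than one of them, which bears on every value given for them. The Ugt1a genes on chromosome 1 each have a first exon of their own and share the exons downstream. Among all stretches of 76 bases, the read length, in its canonical transcript, 98.4% of those of Ugt1a6a were also found in another gene's transcript, 75% of those of Ugt1a2, 71.1% of those of Ugt1a1 and 70.3% of those of Ugt1a7c. Gsta1 (85.1%), Gstp2 (67.1%) and Gstp1 (51.7%) were in the same position. Cyp2c55, Cyp2j6, Cyp4f40, Gsta4, Gstm7 and Sult2b1 shared none. The stretch below, from the GRCm39 reference with GENCODE vM39, is shown because a read from it cannot be assigned to one gene by its sequence. It lies in exon 7 of Gstp1 at chr19:4085560-4085635 (minus strand) and is 1 of 169 such stretches within a single coding exon of Gstp1 that Gstp2 also holds.
Gstp1 and Gstp2: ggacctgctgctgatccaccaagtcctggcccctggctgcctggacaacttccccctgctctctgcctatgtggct
The authors' counting tool, RSEM, divides such reads among the genes by estimation, so the value of a single gene of these groups is less certain than their sum.

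Of the 90 genes, 76 passed the filter on low values (at least 0.1 scaled CPM in at least 3 mice). They were 37 Cyp, 10 Ugt, 9 Sult and 20 Gst genes. Among the 14 left out was Cyp3a11, the textbook PXR target of liver and small intestine, at 0, 0 and 0.0157 scaled CPM in the control mice, against 0.0424, 0.0797 and 0.216 in the treated mice, below the level of 3 counts in all 3 control mice. Ugt1a9 was listed at 0 in every mouse. Hepatocyte markers, of which 4 of 6 were in the table, summed to 15.2 to 19.6 in the control mice and 15.2 to 19.0 in the treated mice. Most of that was Trf (7.6 to 15.7 over the 6 mice) and Ttr (2.95 to 7.54). Alb was at 0.268 to 0.956 and Apoa2 at 0.518 to 1.2.

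The highest members per length of transcript were Sult1a1, Gstp1 and Ugt2b34, all phase II genes. Ugt1a7c (98.8 scaled CPM per kilobase) and the phase I gene Cyp2d34 (97.5) followed and did not differ beyond their spread over the 6 mice. Sult1a1, which sulfates phenols, stood highest at 350 ± 83.2 scaled CPM per kilobase (SD, n = 6 mice) and made up 75.9% of the Sult total on this scale. It was followed at a distance by Sult1d1 (48.2 ± 5.79), an enzyme for catecholamines and other phenols, and by Sult1b1 (37.5 ± 3.41), which also acts on thyroid hormones, and all 6 mice kept this order. Sult2b1 (12.8 ± 4.06) and Sult1c2 (12.1 ± 4.15) did not differ beyond their spread over the 6 mice. Sult2b1 was the lower of the pair in the 3 control mice and the higher in the 3 treated mice.

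Among the Gst genes Gstp1, the pi-class enzyme, was highest at 172 ± 15.6 scaled CPM per kilobase. Gsto1 (93.4 ± 8.37), an omega-class enzyme that reduces dehydroascorbate, came next, then Gstm2 (73 ± 8.62) and Gstm1 (64.4 ± 5.76) of the mu class, and Gstp2 (43.9 ± 7.55). Gstm2 was above Gstm1 in 5 of 6 mice, and every other neighbour in this order kept its place in all 6. Among the Ugt genes the order was Ugt2b34 (133 ± 8.22), Ugt1a7c (98.8 ± 8.46), Ugt1a6a (44.6 ± 6.75), Ugt1a1 (30.9 ± 7.18), the enzyme that conjugates bilirubin, and Ugt2b5 (12.7 ± 3.12). Each of these was above the next in all 6 mice. The 3 highest Cyp genes, Cyp2d34 (97.5 ± 14.3), Cyp2c55 (88.8 ± 36.3) and Cyp2c65 (85.4 ± 20.3), changed places between mice, and Cyp2c65 was above the next, Cyp2j6 (30 ± 3.45), in all 6. Cyp2j6 was above Cyp2d26 (27.1 ± 4.58) in only 4 of 6. Cyp2c55 and Cyp2j6 oxidise arachidonic acid, and the Cyp2d genes are the mouse relatives of a major human drug oxidase. Transcript lengths are those of the canonical transcript, so levels between genes carry any error in that choice.

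**Figure D1:**
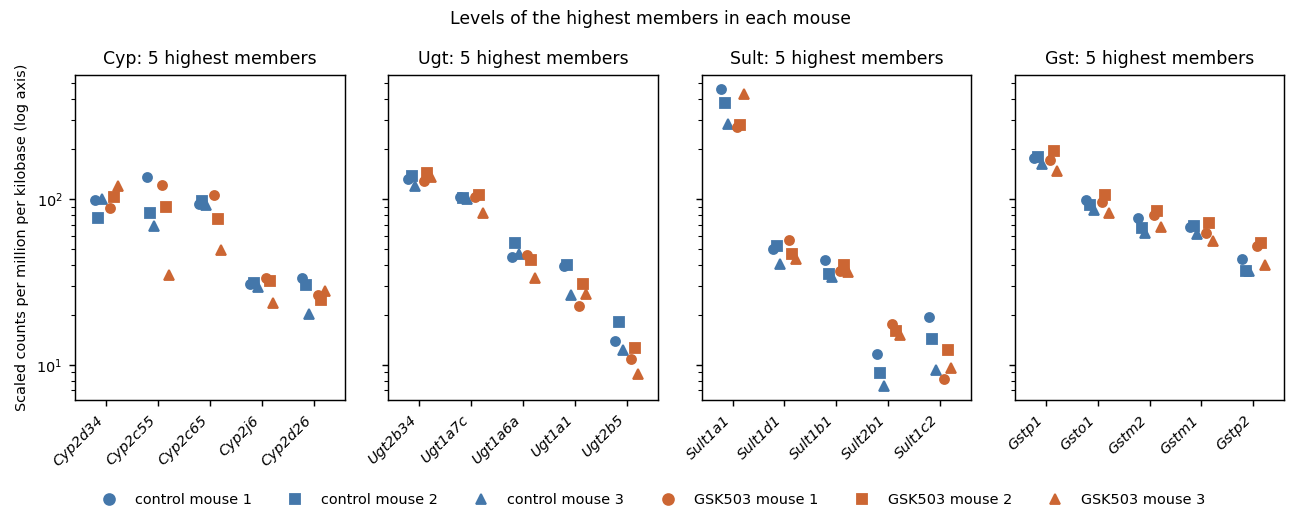
Level of the 5 highest Cyp, Ugt, Sult and Gst genes in each mouse, in scaled CPM per kilobase on a log axis. Each point is 1 mouse, with circles, squares and triangles for mice 1, 2 and 3 of the control group (blue) and the GSK503 group (orange). Sult1a1 stands above the other Sult genes in every mouse, and Cyp2c55 spans 35 to 136.

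No member passed the threshold of an adjusted p below 0.05 in either direction. Fitted over all 16670 genes tested with limma and Benjamini-Hochberg adjustment, 83 genes (0.498%) were called higher in treated mice and 24 (0.144%) lower, and 0 of the 76 members were among them. Limma-voom on counts recovered from the table also called 0 members. At an unadjusted p below 0.05, limma gave 9 members (11.8%), 3 higher and 6 lower, beside 13.3% of all genes, and limma-voom also gave 9. Of these, 6 (7.89%) had no overlap between the groups, beside 11.5% of all genes. At an adjusted p below 0.1 there was 1 (1.32%), Sult2b1, beside 1.97% of all genes. None of these shares stood above that of all genes. The median log2 fold change (log2FC, treated against control) was 0.01 over the members and -0.01 over all genes, with 40 members above 0 and 36 below.

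The precision limits what can be said of single genes. For 27 of the 76 members the 95% interval of the log2FC lay within 1.5-fold in both directions, and for 49 it excluded a 2-fold difference in either direction. The members varied more between mice of 1 group than most genes did, with a median coefficient of variation of 17.9% in the control and 20.1% in the treated mice, beside 12.5% and 11.3% over all genes. The wide intervals belonged mostly to genes of low level such as Cyp3a44, Cyp2t4, Sult4a1, Sult5a1 and Gsto2, as the plot of all intervals shows.

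**Figure D2:**
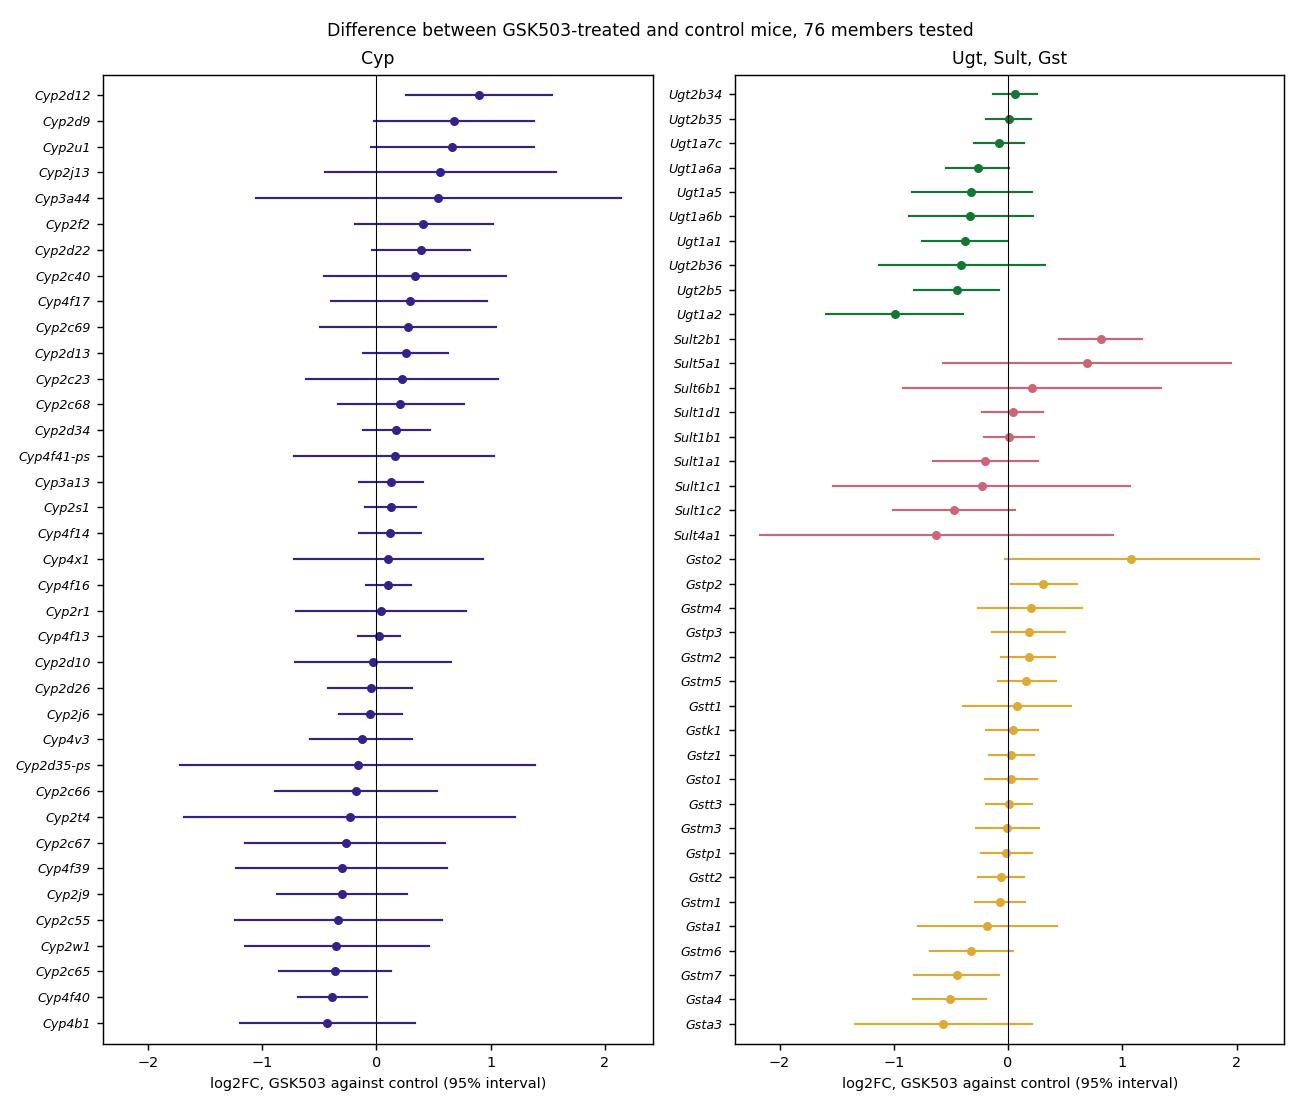
Fold change of each of the 76 members tested, as log2FC of GSK503-treated against control mice (point) with its 95% interval from limma (line), on log2(scaled CPM + 0.1), for 3 mice per group. Cyp genes are at left, and Ugt (green), Sult (pink) and Gst (yellow) genes at right. The 9 intervals that exclude 0 are those of Cyp2d12, Cyp4f40, Ugt1a1, Ugt1a2, Ugt2b5, Sult2b1, Gstp2, Gsta4 and Gstm7.

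Sult2b1, the sulfotransferase that acts on cholesterol and other hydroxysteroids, had the smallest p of all members. It lies at chr7:45379407-45434093 (GRCm39, minus strand). Its levels were 13.8, 10.7 and 8.92 scaled CPM in the control mice, against 20.9, 19.0 and 18.0 in the treated mice. All 3 treated mice were above all 3 control mice. The log2FC was 0.81 (95% interval 0.45 to 1.17, SE 0.16), with a limma adjusted p of 0.0598, which misses the threshold. Over 17 alternative analyses the adjusted p ranged from 0.0231 to 0.244. It fell below 0.05 in 2 of them, with robust variance estimates and without control mouse 1, where the log2FC was 0.97. The other Sult genes gave no such separation. Sult1a1 was at 598, 496 and 369 in the control and 352, 365 and 559 in the treated mice, and its interval of -0.66 to 0.26 included 0. Sult1c2, at 46.4, 34.6 and 22.3 against 19.8, 29.3 and 23.0, had a log2FC of -0.47 (-1.01 to 0.06, limma adjusted p 0.442), and of -0.23 without control mouse 1 and -0.75 without control mouse 3. For Sult1b1 (0.01, interval -0.21 to 0.23) and Sult1d1 (0.04, -0.23 to 0.31) the interval excluded a difference of 1.5-fold. The remaining 4 had low levels, and their intervals did not exclude a 2-fold difference.

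Ugt genes had values mostly below those of the control mice. Of the 10 tested, 8 had a log2FC below 0, with a median of -0.32, but 0 were called. All 6 tested Ugt1a genes were below 0, and these share their downstream exons, so they are not 6 independent measurements. Their summed level was 630, 654 and 587 scaled CPM in the control mice, against 577, 598 and 476 in the treated mice, and the groups overlapped. Treated mouse 3 was the lowest of the 6. Without it the median log2FC of the Ugt1a genes was -0.15. When only library size was used to scale the values it was -0.43, where the median of all genes was -0.12.

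Ugt1a2 had the lowest log2FC of the members tested. Its levels were 4.11, 3.08 and 5.13 scaled CPM in the control mice, against 2.32, 2.19 and 1.51 in the treated mice, with no overlap. The log2FC was -0.99 (95% interval -1.59 to -0.39, limma adjusted p 0.142). Ugt1a1 was at 127, 129 and 84.7 against 72.7, 98.9 and 86.7 (log2FC -0.38, interval -0.75 to -0.01, adjusted p 0.36), and the groups overlapped. Ugt1a6a, an enzyme for planar phenols, was at 146, 176 and 153 against 150, 140 and 108 (log2FC -0.26, adjusted p 0.404, and -0.12 without treated mouse 3). The most abundant of the locus, Ugt1a7c, was at 340, 333 and 327 against 336, 346 and 270, with a log2FC of -0.08 and an interval of -0.30 to 0.14 that excluded 1.5-fold. In the Ugt2b cluster on chromosome 5, Ugt2b34 had a log2FC of 0.06 (-0.13 to 0.25), while Ugt2b5, at 34.7, 44.7 and 30.4 against 26.9, 31.6 and 21.7, had one of -0.45 (-0.82 to -0.08, adjusted p 0.283). Ugt2b5 overlapped between the groups, and 22.3% of its stretches of 76 bases occur in other genes.

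Of the 20 Gst genes tested, 11 had a log2FC above 0 and 9 below. The 3 tested alpha-class genes, Gsta1, Gsta3 and Gsta4, all had a log2FC below 0 (median -0.51). The median was -0.07 without treated mouse 3, and 0 were called. Gsta4, which conjugates the lipid peroxidation product hydroxynonenal, was at 51.4, 46.7 and 36.8 scaled CPM in the control mice, against 27.1, 36.4 and 31.0 in the treated mice. The highest treated mouse lay just under the lowest control mouse. The log2FC was -0.51 (95% interval -0.83 to -0.19, limma adjusted p 0.153), and it stayed between -0.65 and -0.41 when each mouse was left out in turn. Gsta1, a textbook NRF2 target, was at 18.5, 11.1 and 13.8 against 16.3, 14.9 and 7.99. Its log2FC was -0.18 with treated mouse 3 and 0.14 without it.

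In the mu class Gstm7 was at 10.5, 9.72 and 7.90 scaled CPM against 6.93, 7.58 and 5.98, with no overlap (log2FC -0.45, 95% interval -0.82 to -0.08, limma adjusted p 0.274). The abundant Gstm1 (-0.07, interval -0.29 to 0.15) and Gstm2 (0.18, -0.06 to 0.41) had intervals within 1.5-fold. The same was true of Gsto1 (0.03, -0.20 to 0.25) and Gstp1 (-0.02, -0.24 to 0.21), the highest Gst gene. Gstp2 was at 35.2, 29.7 and 29.6 against 42.1, 43.5 and 32.4, with overlap (log2FC 0.31, adjusted p 0.33), and 67.1% of its stretches of 76 bases occur in transcripts of other genes, Gstp1 among them. Over the superfamily, 12 of 20 intervals lay within 1.5-fold and 18 excluded 2-fold. The summed Gst level was 824 ± 54.1 scaled CPM in the control and 824 ± 89.5 in the treated mice (SD, n = 3).

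**Figure D3:**
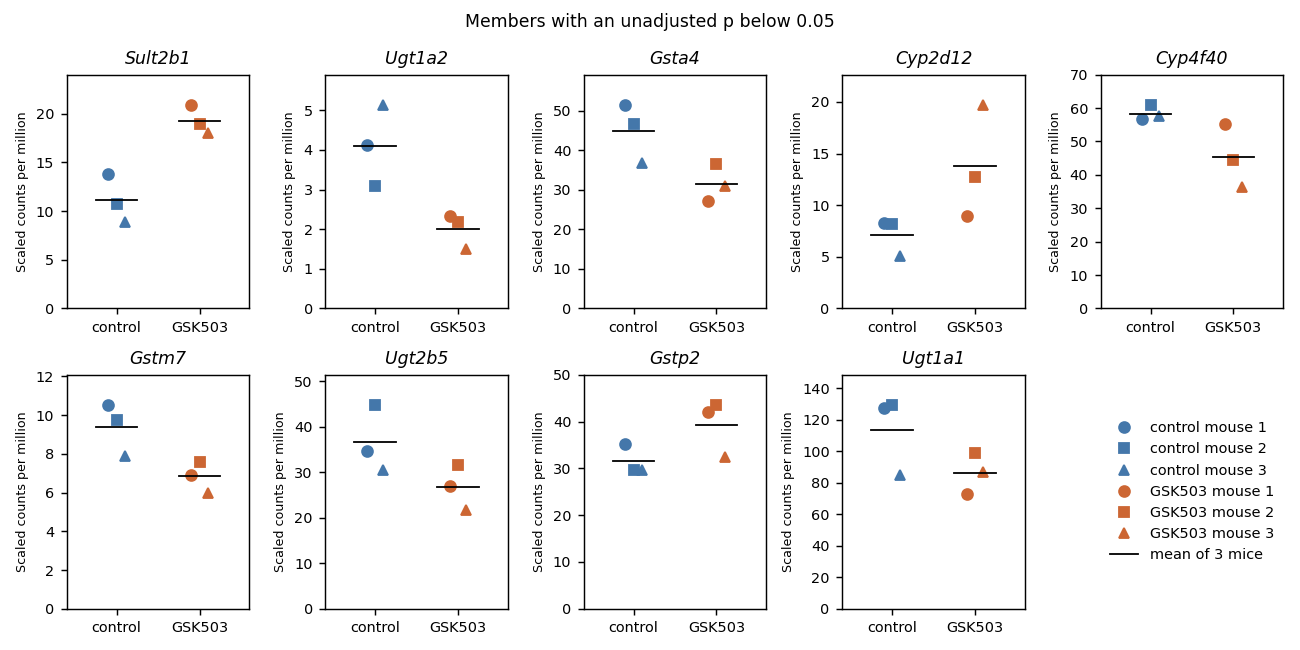
Level in each mouse of the 9 members with an unadjusted p below 0.05, in scaled CPM on linear axes from 0. Points are mice and lines are means of 3 mice. Sult2b1, Ugt1a2, Gsta4, Cyp2d12, Cyp4f40 and Gstm7 do not overlap between the groups, and Ugt2b5, Gstp2 and Ugt1a1 do. None has an adjusted p below 0.05.

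Cyp genes gave 2 members with an unadjusted p below 0.05 of 37 tested, a smaller share than the 13.3% of all genes. Cyp2d12 was at 8.23, 8.14 and 5.04 scaled CPM in the control mice, against 8.99, 12.7 and 19.7 in the treated mice. The groups did not overlap, but control mouse 1 and treated mouse 1 lay close together. Its log2FC was 0.90 (95% interval 0.26 to 1.54, limma adjusted p 0.206). Cyp4f40, of a family that hydroxylates fatty acids and leukotrienes, was at 56.6, 60.9 and 57.6 against 55.2, 44.5 and 36.3 (log2FC -0.39, interval -0.69 to -0.08, adjusted p 0.253). Here too the groups did not overlap, and treated mouse 1 lay next to the control mice. The log2FC was -0.24 without treated mouse 3.

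Of the 8 tested Cyp2d genes on chromosome 15, 5 had a log2FC above 0, from 0.17 to 0.90, and the median was 0.22. None of the 8 was called. The 3 below 0 were Cyp2d10 (-0.03), Cyp2d26 (-0.05, interval -0.42 to 0.31) and the pseudogene Cyp2d35-ps. That pseudogene had a mean of only 0.134 scaled CPM (log2FC -0.16, interval -1.72 to 1.39). The most abundant Cyp2d gene, Cyp2d34, had a log2FC of 0.17 (-0.12 to 0.47). Of the members known for a sex difference in mouse liver, the male-predominant Cyp2d9 was at 7.42, 4.40 and 5 scaled CPM in the control mice, against 5.66, 8.68 and 13.9 in the treated mice. The female-predominant Cyp3a44 was at 0.32, 0.597 and 0 against 0.195, 0.653 and 0.308. Both overlapped between the groups. These 2 were chosen after their values were seen and are not a full list of such members. Their sex pattern in liver is background that was not tested in colon. Treatment and sex cannot be told apart in these values either.

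Cyp2c55 and Cyp2c65 varied widely between mice of 1 group. Cyp2c55, a textbook target of CAR and PXR, was at 272, 166 and 137 scaled CPM in the control mice, against 243, 180 and 70.2 in the treated mice. Its log2FC was -0.34 (95% interval -1.24 to 0.57), and 0.19 without treated mouse 3. Cyp2c65 was at 179, 186 and 178 against 204, 145 and 94.9 (log2FC -0.36, -0.85 to 0.13, limma adjusted p 0.52, and -0.07 without treated mouse 3), with treated mice both above and below the tight control values. Cyp2j6, at 112, 113 and 107 against 121, 116 and 85.4, had a log2FC of -0.06 (-0.33 to 0.22). The summed Cyp level was 1076 ± 128 in the control and 1049 ± 116 in the treated mice (SD, n = 3).

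Treated mouse 3 stood apart from the other 2 treated mice in several of these genes. It held the lowest value of 7 of the 10 tested Ugt genes and 11 of the 20 tested Gst genes, but of only 4 of the 37 Cyp and 1 of the 9 Sult genes. Those Ugt genes include Ugt1a2, Ugt1a5, Ugt1a6a, Ugt1a6b and Ugt1a7c, which share their downstream exons and are not independent measurements. Over all members treated mouse 3 was lowest in 30.3%, close to the 28.9% of control mouse 3, beside 21.1% and 19.1% of all genes tested. It was the highest of the 6 in 11 of the 37 Cyp genes. The Cyp2c sum was 192 scaled CPM in that mouse, beside 471 and 352 in the other treated mice and 333 to 478 in the control mice, while its Cyp2d sum of 330 was the highest of all 6. Its smooth muscle markers summed to 123 scaled CPM, beside 4.56 and 4.26 in the other treated mice and 21.4 to 91.4 in the control mice, with all 7 markers detected in it. Its B and plasma cell markers summed to 62.5, beside 1.9 to 3.25 and 22.3 to 73.7, of which the plasma cell gene Jchain made up 57.9, while the B cell genes Cd79a (0.458), Cd79b (0.333) and Ms4a1 (0.0915) were low in it. Its fibroblast (113), macrophage (36.4) and endothelial (9.78) marker sums were also the highest of the 6. Its T cell sum of 14.3 lay inside the control range. Its colonocyte markers summed to 2228, the lowest of the 6, beside 5396 and 3496 in the other treated mice and 3085 to 3226 in the control mice. Among these 7 markers Car1 alone had its lowest value in that mouse (954), and Car4 had its highest (352). The part of these cell types in its enzyme values was not tested. Without this mouse the median log2FC of the members was 0.07, beside 0.00 over all genes.

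**Figure D4:**
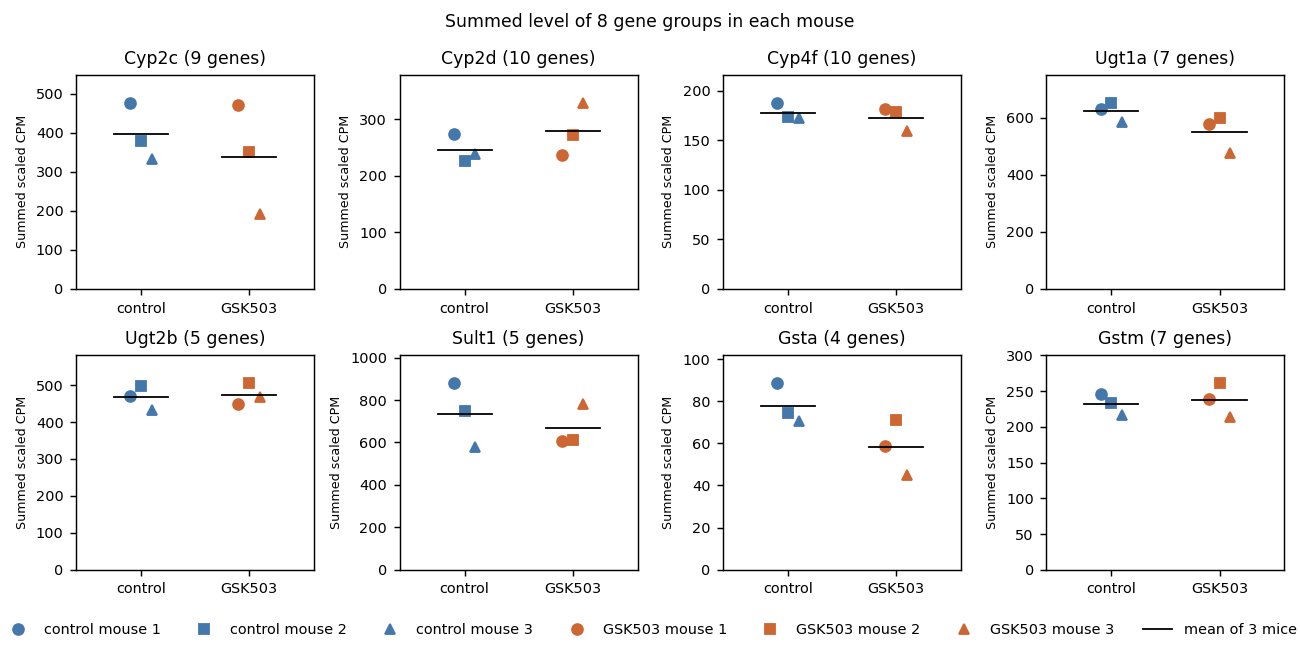
Summed scaled CPM of 8 groups of genes in each mouse, on linear axes from 0. Points are mice, lines are means of 3 mice, and the genes in each group are all those in the table, including those below the filter. Treated mouse 3 (orange triangle) is the lowest of the 6 in the Cyp2c, Cyp4f, Ugt1a, Gsta and Gstm groups and the highest in the Cyp2d group.

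Promoters are shown for the 3 members with the smallest p, Sult2b1, Ugt1a2 and Gsta4. Each runs from 250 bases before to 50 after the start of the canonical transcript, read 5′ to 3′ on the strand of the gene from GRCm39, with capitals for a match to the core of the AhR response element, GCGTG, on either strand. None of the 3 held a match to the core of the antioxidant response element, TGACNNNGC. Those starts for Sult2b1 and Gsta4 lie inside the full extent of the gene, so other starts are not covered.
Sult2b1, chr7:45408987-45409286, minus strand: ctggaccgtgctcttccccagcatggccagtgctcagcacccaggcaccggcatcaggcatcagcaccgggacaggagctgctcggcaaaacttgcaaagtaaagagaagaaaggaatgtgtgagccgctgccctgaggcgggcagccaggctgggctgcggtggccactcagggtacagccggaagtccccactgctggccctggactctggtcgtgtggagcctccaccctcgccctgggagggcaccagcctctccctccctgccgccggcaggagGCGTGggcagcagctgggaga
Ugt1a2, chr1:88128073-88128372, plus strand: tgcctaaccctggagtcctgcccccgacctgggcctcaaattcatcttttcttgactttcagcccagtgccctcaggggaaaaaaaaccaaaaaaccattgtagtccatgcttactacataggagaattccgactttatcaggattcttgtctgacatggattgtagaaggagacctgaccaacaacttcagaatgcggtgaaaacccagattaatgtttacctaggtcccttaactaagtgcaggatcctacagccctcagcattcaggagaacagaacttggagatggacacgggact
Gsta4, chr9:78098979-78099278, plus strand: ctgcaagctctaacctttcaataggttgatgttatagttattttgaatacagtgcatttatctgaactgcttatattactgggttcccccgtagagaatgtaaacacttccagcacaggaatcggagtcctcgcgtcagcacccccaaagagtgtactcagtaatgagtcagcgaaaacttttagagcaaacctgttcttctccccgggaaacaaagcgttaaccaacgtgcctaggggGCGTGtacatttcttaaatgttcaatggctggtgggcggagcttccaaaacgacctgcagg
The match in Sult2b1 begins at position 30 after the start and that in Gsta4 at position -11. Of the 74 promoters of the same length of tested protein-coding members, 21 (28.4%) held GCGTG, beside 45.8% of 14667 promoters of tested protein-coding genes, and 6 (8.11%) held TGACNNNGC, beside 13.3%. These matches are letters only and say nothing of binding.

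The genes that control these enzymes or work with them were given by lists of 73 genes, of which 71 were in the table and all 71 were tested. Of these, 1 passed the threshold, with a limma adjusted p of 0.0275, beside 107 of all 16670 genes tested. That gene was Slc7a11, which imports cystine for glutathione synthesis and is a target of NRF2. Its levels were 3.23, 3.73 and 4.16 scaled CPM in the control mice, against 9.09, 10.7 and 7.08 in the treated mice. All 3 treated mice were above all control mice, and Slc7a11 rose with a log2FC of 1.24 (95% interval 0.80 to 1.68). Leaving out any mouse but treated mouse 3 took its adjusted p above 0.05 (up to 0.175), as did a fit without an intensity trend (0.19), while the log2FC stayed between 1.10 and 1.39. The other 11 glutathione and NRF2 genes were not called. At an unadjusted p below 0.05 there were 3 of the 12, Slc7a11, Hmox1 and Gclc, a rule that 13.3% of all genes met. Gclc, for the rate-limiting enzyme of glutathione synthesis, was at 102, 93.5 and 114 against 93.4, 86.5 and 86.0 (log2FC -0.21, interval -0.41 to -0.02). Nqo1, a textbook NRF2 target, was at 26.1, 26.7 and 26.3 against 25.6, 25.8 and 18.8 (log2FC -0.19, -0.47 to 0.10). Both were lower in treated mice without overlap. Hmox1, a further NRF2 target, was at 0.571, 1.02 and 1.32 against 1.36, 1.66 and 2.72, without overlap (log2FC 0.92, 95% interval 0.08 to 1.76, limma adjusted p 0.333).

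Of 16 receptors and regulators 0 were called. At an unadjusted p below 0.05 there were 4 of the 16, a rule that 13.3% of all genes met. All 4 also had no overlap between the groups, beside 11.5% of all genes. Of the 4, 1 was higher. The other 3 were lower. They were Nr1h4, Ahrr and Ppara. Nr1h4, the gene of the bile acid receptor FXR, was at 148, 152 and 151 scaled CPM against 131, 127 and 118 (log2FC -0.27, limma adjusted p 0.131). Ahrr, a repressor of AhR, was at 0.487, 0.407 and 0.315 against 0.0932, 0.263 and 0.133 (log2FC -0.97, interval -1.93 to -0.01, adjusted p 0.367). These Ahrr levels are low, close to the 0.1 added to each value before the log. Ppara, a fatty acid receptor, had a log2FC of -0.30 (adjusted p 0.342). Nr1i3, which encodes CAR, came closest, at 0.69, 0.99 and 0.677 scaled CPM in the control mice, against 2.14, 2.38 and 2.65 in the treated mice. The groups were far apart at a low level, with a log2FC of 1.5 (95% interval 0.89 to 2.12, limma adjusted p 0.0505), and the adjusted p was below 0.05 in 4 of 17 alternative analyses (range 0.0303 to 0.241). Nr1i2, which encodes PXR, was at 81.4, 73.2 and 78.6 against 72.4, 70.7 and 71.0 (log2FC -0.12, -0.28 to 0.04, adjusted p 0.506). Nfe2l2, which encodes NRF2, was at 179, 181 and 168 against 156, 160 and 161 (log2FC -0.15, -0.30 to 0.00, adjusted p 0.383). Both were lower in all 3 treated mice than in any control mouse by less than 1.5-fold. Ahr itself was at 15.9, 16.4 and 19.6 against 16.8, 15.5 and 17.7, a log2FC of -0.05 with an interval of -0.31 to 0.22.

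In the remaining lists 0 genes were called. The 5 electron partners of the cytochromes, among them the reductase gene Por (log2FC 0.08), all had intervals within 1.5-fold. So did 9 of the 10 genes that make or transport the cofactors of Ugt and Sult enzymes, such as Ugdh (-0.17) and Papss2 (-0.17). Of 21 other drug-metabolising enzymes, 4 had an unadjusted p below 0.05, a rule that 13.3% of all genes met. Among them were Fmo1 (log2FC 0.83, limma adjusted p 0.112), Fmo4 (0.68, 0.232) and Mgst1 (-0.32, 0.27). Of 7 efflux transporters, 1 did, Abcc4 (-0.26, adjusted p 0.287), and the abundant Abcb1a, at 308, 289 and 237 against 288, 281 and 246, had a log2FC of -0.03 (-0.27 to 0.21). Over all 71 genes the median log2FC was -0.04. At an unadjusted p below 0.05 there were 13 of the 71, 7 higher and 6 lower. That is a larger share than the 13.3% of all genes, and the difference between the shares was not tested.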

How the data were processed

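Total RNA-Seq of colonic crypts from 6 mice was used, with groups and replicate numbers from the sample labels. The authors used STAR (build GRCm39) for alignment, RSEM for estimated counts and TMM scaling in edgeR, and deposited a signal per gene, which is the estimated count over the TMM-scaled library size in the manner of CPM. The annotation and filters behind the table are not given in the sources used here. The table holds no raw counts, so limma (version 3.58.1, R 4.3.3; lmFit and eBayes with an intensity trend) was fitted to log2(value + 0.1) for 16670 genes with at least 0.1 in at least 3 mice, with Benjamini-Hochberg adjustment over all of them. A fold change on this scale understates that of low genes. In each library 86.1% to 88.1% of low values were whole multiples of its step within 0.01, which gave the estimated depth and the counts for limma-voom. Floors of 3 counts cover counting error only. Labels do not say more than that each library is a separate sample of its group, so p-values measure the spread between these samples.

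Symbols were matched to GENCODE vM39 (95.41% of all, 89 of the 90 members), and coordinates, lengths of the Ensembl canonical transcript and sequences come from it and GRCm39. Members and lists were chosen with earlier results of these data known. Members are named where the adjusted p was below 0.1, where the unadjusted p was below 0.05 without overlap, where they were among the 5 highest per kilobase of their superfamily, or where they are textbook receptor targets; partner genes where the adjusted p was below 0.1, and Ahr, Nr1i2, Nr1i3 and Nfe2l2. Others named as examples were picked with their values known. The test was tested on simulated data. Alternatives were other scalings, filters, pseudocounts and variance models, limma-voom, a replicate block, no X and Y genes, and leaving out each mouse. Nat1 and Sts, also listed as partner genes, were not analysed here. Some items, a partner gene among them, are not reported here.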

Additional observations from a re-analysis of the deposited data

How the results depend on the processing

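No member was called lower in treated mice under any of the alternatives run. The count of members called higher (0) became 1 with robust variance estimates and 1 at an adjusted p threshold of 0.1, in both cases Sult2b1, and ranged from 0 to 1 when each mouse was left out. The 6 members with an unadjusted p below 0.05 and no overlap became 5 to 12 when a mouse was left out (11 without treated mouse 1, 12 without control mouse 1 and 12 without control mouse 3), where 2 mice are easier to separate from 3 than 3 are. The count of partner genes called (1) became 3 when scaled by library size alone, 2 with median of ratios, 2 with a pseudocount of 1, 2 with robust variance estimates, 2 at a threshold of 0.1 and 0 without an intensity trend, and ranged from 0 to 1 when each mouse was left out. Library size alone moved the median log2FC of all genes to -0.12 and that of the members to -0.10, and turned Gsto1 (-0.09), Sult1b1 (-0.10), Sult1d1 (-0.08) and Ugt2b34 (-0.05) to below 0. Relative to that shift all 4 stayed above 0. Replicate numbers were not treated as a pairing. Deviations of same-numbered mice correlated at 0.0322, -0.126 and -0.119, and those of other pairs at -0.175 to 0.224. With 3 mice per group these values cannot exclude a pairing. A fit with the replicate block called 0 members and 0 partner genes, and 33 of all genes in place of 107. Of 527 values of 31 genes over 17 alternatives, 490 kept their direction and side of the threshold, 24 changed sign, 6 gained and 7 lost the call. The changes of sign were all in genes that were not called. Leaving out each mouse gave log2FC ranges of -0.71 to 0.19 for Cyp2c55, -0.27 to 0.09 for Cyp2d26, -0.15 to 0.10 for Cyp2j6, -0.37 to 0.14 for Gsta1, -0.16 to 0.02 for Gstm1, -0.05 to 0.12 for Gsto1, -0.11 to 0.08 for Gstp1, -0.06 to 0.12 for Sult1b1, -0.07 to 0.12 for Sult1d1, -0.15 to 0.03 for Ugt1a7c and -0.11 to 0.05 for Ahr. Without a change of sign, it gave -0.42 to -0.04 for Sult1a1, 0.05 to 0.28 for Cyp2d34, -0.58 to -0.27 for Ugt1a1 and -0.58 to -0.30 for Ugt2b5. The cause of these changes was not tested.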
